A study of Homo sapiens with 9 samples.

Results

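The genes described here are 10 long noncoding RNAs of the LN229 cell line: MALAT1, NEAT1, the small nucleolar RNA (snoRNA) hosts GAS5, SNHG1, SNHG5, SNHG8 and SNHG15, and the RNAs CYTOR, PVT1 and MIR22HG. They were taken by name, as the entries of the deposited count table whose Ensembl identifiers carry these symbols, a rule that uses no measured value. All 10 were found among 23727 genes, each under 1 identifier, and all 10 were among the 15273 genes that passed a filter on low counts and were tested. Although they were grouped as abundant, their median CPM (read counts scaled for library size, as below) ranked from the 97.8th percentile of tested genes (NEAT1) to the 41.5th (MIR22HG). MALAT1, NEAT1, SNHG5, GAS5 and SNHG1 stood above the 80th percentile, and the other 5 stood near the middle. This rank takes no account of gene length, so it describes the share of reads and not the level of the RNA. Per kilobase of exon, as given below, SNHG8 (median 20.6 CPM per kb) stood above MALAT1 (17.6) and NEAT1 (13.9).

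LN229 is an established human glioblastoma line, and RNA sequencing measured its response to formate, a 1-carbon donor of folate metabolism. Cells in every group grew in Dulbecco's medium that held 2 mM glutamine, 17 mM glucose and, as its serum, 10% FBS. The groups were untreated cells at 0 h, cells given 500 µM sodium formate for 8 h and cells given it for 24 h, with 3 libraries each from a stranded mRNA kit on RNA of integrity number above 9. Every untreated library was taken at 0 h, so formate and time in culture cannot be told apart in these data. The labels number the replicates 1 to 3 but do not say that they were separate cultures, so p-values measure only the spread between these samples, which may be technical.

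MALAT1 and NEAT1 are nuclear RNAs transcribed side by side on chromosome 11. MALAT1 gathers in nuclear speckles, the stores of splicing factors, and NEAT1 is the scaffold around which paraspeckles assemble. The snoRNA hosts carry snoRNAs in their introns; these guide chemical modification of ribosomal and spliceosomal RNA, while the spliced RNA of several hosts is engaged by ribosomes and cleared by nonsense-mediated decay, the pathway that removes messages with early stop codons. GAS5, named for its accumulation in growth-arrested cells, belongs with the terminal oligopyrimidine (TOP) genes, whose transcripts open with a run of C and T and whose translation follows mTOR signalling. CYTOR and PVT1 are RNAs often raised in tumours, PVT1 lying downstream of MYC, and MIR22HG is the primary transcript of miR-22.

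The small RNAs inside these transcripts show what each host carries, although no small RNA was itself measured. RefSeq (GRCh38.p14) places 11 snoRNAs within GAS5, 9 within SNHG1, 2 within SNHG5 and 1 each within SNHG8 and SNHG15. It places miR-22 within MIR22HG on chromosome 17, and its mature arms, given here since MIR22HG was the member that changed, stand at chr17:1713914-1713935 (3p) and chr17:1713952-1713973 (5p) on the minus strand. Capitals mark the seed, bases 2 to 8, which pairs with target messages.
hsa-miR-22-3p: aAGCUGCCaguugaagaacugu
hsa-miR-22-5p: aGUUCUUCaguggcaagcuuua

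Examples of the box C/D snoRNAs, taken from GENCODE transcripts on GRCh38, are given to show the shared ends that define the class. SNORD25 (chr11:62855564-62855632) and SNORD27 (chr11:62855012-62855083) lie within SNHG1, and SNORD50B (chr6:85677589-85677658) lies within SNHG5, all on the minus strand. Capitals mark box C (TGATGA) near the 5′ end and box D (CTGA) near the 3′ end.
SNORD25: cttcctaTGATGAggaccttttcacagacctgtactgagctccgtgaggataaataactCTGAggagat
SNORD27: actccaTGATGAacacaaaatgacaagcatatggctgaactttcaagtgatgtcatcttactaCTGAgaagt
SNORD50B: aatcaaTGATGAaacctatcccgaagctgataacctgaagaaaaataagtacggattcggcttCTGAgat

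Start sites were read from RefSeq windows of 250 bases before to 50 bases after each annotated start (GRCh38.p14). Windows of 7 of the 10 genes were searched, with MALAT1 in 2 windows. NEAT1, SNHG15 and PVT1 were not searched. A TOP-like opening was searched on the gene's own strand as at least 5 letters, each C or T and the first a C, beginning within 5 bases of the start. It was found for SNHG5, SNHG8 and 1 of the MALAT1 windows, and in 21.1% of 35116 windows genome-wide. No run met the rule at GAS5, SNHG1, CYTOR or MIR22HG, which says only that these letters are not at the RefSeq starts used. The GAS5 window (chr1:173868996-173869295, minus strand) lies wholly upstream of the gene in GENCODE 29, which begins at 173868882. The opening of GAS5 by GENCODE was therefore not searched. Both snoRNA hosts with such a run are shown from 30 bases before the start on, SNHG5 at chr6:85678704-85678763 on the minus strand and SNHG8 at chr4:118278732-118278791 on the plus strand, with the run in capitals.
SNHG5 start: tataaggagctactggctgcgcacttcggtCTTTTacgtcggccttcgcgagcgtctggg
SNHG8 start: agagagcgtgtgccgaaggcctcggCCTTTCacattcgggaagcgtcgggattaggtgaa

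The hexamer CACGTG reads the same on both strands, and MYC and related factors can bind it. It was in none of the member windows searched, which did not include PVT1, and in 7.26% of all windows. These are letter matches, not sites.

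The libraries held 22222298 to 25848242 counts, and 3 counts corresponded to 0.116 to 0.135 CPM. CPM are read counts divided by a library's TMM-adjusted total, and they allow a gene to be followed across libraries but not compared with another gene. Untreated replicate 1 stood apart: the chi-square per degree of freedom against its partners was 57.6 and 60.5, and between the other 2 untreated libraries it was 8.63. Replicate 1 also stood further off in the treated groups, though less so. Its values were 22.6 and 23.7 beside 10.9 at 8 h, and 13.9 and 24.5 beside 8.86 at 24 h. Libraries of the same replicate number deviated together between 0 h and each treated group, so a fit with the replicate number as a block is given beside results where it changed a call. The line's markers VIM, NES, CD44, EGFR and SOX2 were present, GFAP was near absent at 0.233 CPM before treatment, and the 6 immune markers summed to at most 0.620 CPM in any library.

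By GENCODE 29 on GRCh38, NEAT1 lies at chr11:65422774-65445540 and MALAT1 at chr11:65497688-65506516, both on the plus strand and annotated as long intergenic RNAs. The hosts GAS5 (chr1:173863900-173868882), SNHG1 (chr11:62851988-62855914), SNHG5 (chr6:85660950-85678748) and SNHG15 (chr7:44983023-44986961) are on the minus strand and SNHG8 (chr4:118278709-118279823) on the plus strand. MIR22HG (chr17:1711493-1717174) is on the minus strand, and CYTOR (chr2:87454781-87636740) and PVT1 (chr8:127794533-128101253) on the plus strand. Counts cover the whole gene, with 5 to 38 annotated transcripts each (5 for SNHG8, 38 for CYTOR). Genes on the opposite strand cover 4.49% of MALAT1's exon bases, 2.31% of PVT1's, 2.29% of CYTOR's, 1.16% of GAS5's and none of the other 6.

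Levels were compared between the members per kilobase of merged exon (GENCODE 29). The host SNHG5 was highest with a median of 43.9 CPM per kb over the 9 libraries (range 37.0 to 67.6). GAS5 followed at 31.9, SNHG1 at 21.1 and SNHG8 at 20.6 CPM per kb, all 3 being snoRNA hosts. MALAT1 stood at 17.6 and NEAT1 at 13.9 CPM per kb, so that NEAT1, first of the 10 in unscaled CPM, was in sixth place once its 22767 bases of exon were taken into account. SNHG15 stood at 5.78, MIR22HG at 4.99, PVT1 at 2.80 and CYTOR at 1.31 CPM per kb. Neighbours in this order overlapped in their ranges over libraries, except that NEAT1 (lowest library 10.7) lay above SNHG15 (highest 8.39) and PVT1 (lowest 2.28) lay above CYTOR (highest 1.98). With the length of the longest transcript in place of merged exons the upper 6 kept their order, and PVT1 moved above SNHG15 and MIR22HG at 9.06 CPM per kb. Counts by gene do not separate the short and long forms of NEAT1, and how much of the untailed MALAT1 and long NEAT1 molecules an mRNA kit recovers was not tested.

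**Figure D1:**
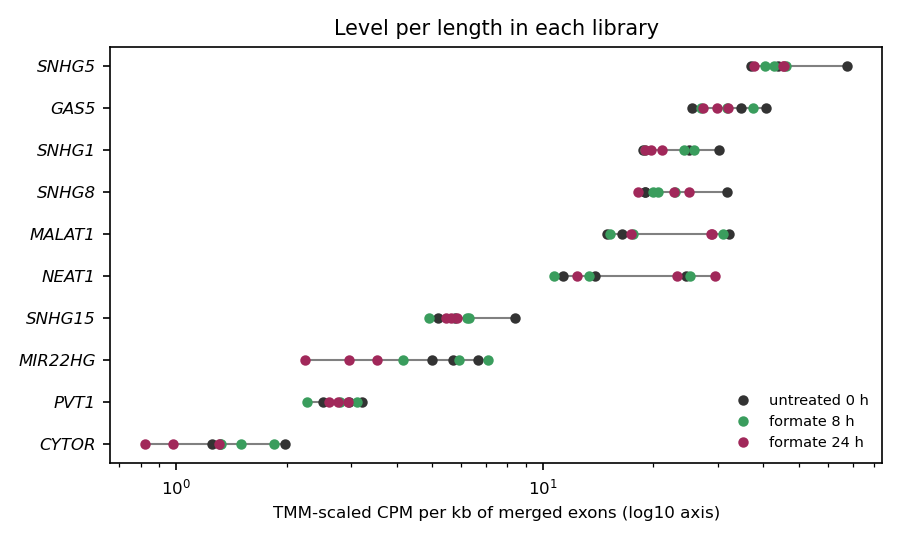
Level of each of the 10 RNAs in CPM per kilobase of merged exon (log10 axis), with 1 point per library coloured by group and a line from the lowest to the highest library. SNHG5 has the highest median (43.9) and CYTOR the lowest (1.31), and the 3 MIR22HG points of 24 h lie to the left of the other 6.

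The first comparison asked what had changed after 8 h of formate, and none of the 10 RNAs passed the test. Their fitted log2 fold changes ran from -0.20 for SNHG5 to 0.04 for CYTOR, with a median of -0.08, beside -0.02 over all tested genes. The smallest unadjusted p among them was 0.295. With edgeR's quasi-likelihood test and Benjamini-Hochberg adjustment 0 of the 10 were called, as were 0% of all tested genes with and without the block, although 79 genes had an unadjusted p under 0.05 without it and 155 with it, and DESeq2 called 0. No member's libraries were separate between 0 h and 8 h, which 3.31% of tested genes were. All 5 snoRNA hosts were fitted lower at 8 h, and each of these 5 signs turned when untreated replicate 1 was left out (SNHG5 0.08, SNHG8 0.15, GAS5 0.09, SNHG1 0.07 and SNHG15 0.08 on the log2 scale).

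After 24 h, MIR22HG was the member that changed, falling to close to 50% of its level. Untreated libraries held 17.0, 14.9 and 19.9 CPM for replicates 1, 2 and 3, those of 8 h held 17.6, 12.4 and 21.2, and those of 24 h held 10.5, 8.84 and 6.72. Every library of 24 h was below every library of 0 h and of 8 h. In RNA from whole dishes, fewer cells holding a transcript and less of it per cell cannot be told apart. The mean was 17.3 ± 2.52 CPM (SD, n = 3) untreated, 17.1 ± 4.43 at 8 h and 8.70 ± 1.91 at 24 h, a fitted change of -0.99 on the log2 scale (SE 0.21), or 1.98-fold lower (edgeR quasi-likelihood test, Benjamini-Hochberg adjusted p = 0.0316). Replicate by replicate the difference was -0.68, -0.75 and -1.56, with the larger fall in replicate 3.

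Against 8 h, MIR22HG was lower by a fitted -0.97 (SE 0.21, adjusted p = 0.0326); both comparisons use the same 24 h libraries. Its counts ran from 162 to 499 per library, far above the 3-count floor. With the block the adjusted p against 0 h was 0.00360, and it stayed under 0.05 in all 9 block fits that left out 1 library (highest 0.0132). Without the block the call was lost without untreated replicate 3 (adjusted p = 0.0592), 24 h replicate 2 (0.134) or 24 h replicate 3 (0.158). It was also lost with only the 2 groups compared in the fit (0.0506). The 24 h against 8 h call was lost without 24 h replicate 2 (0.126), 24 h replicate 3 (0.170), 8 h replicate 1 (0.135) or 8 h replicate 3 (0.0914).

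Thus 1 of the 10 members (10%) was called at 24 h against 0 h, beside 4.25% of all tested genes (378 higher and 271 lower). With the replicate block 3 were called, CYTOR and MIR22HG lower and NEAT1 higher, beside 24.1% of all tested genes. At 24 h against 8 h, 1 member was called, MIR22HG, beside 4.56%. The libraries of 24 h were separate from those of 0 h for 1 member, MIR22HG, beside 30.3% of tested genes, and from those of 8 h for MIR22HG and CYTOR, beside 34.3%. The members' median log2 fold change at 24 h against 0 h was -0.19, and that of all tested genes was 0.01.

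**Figure D2:**
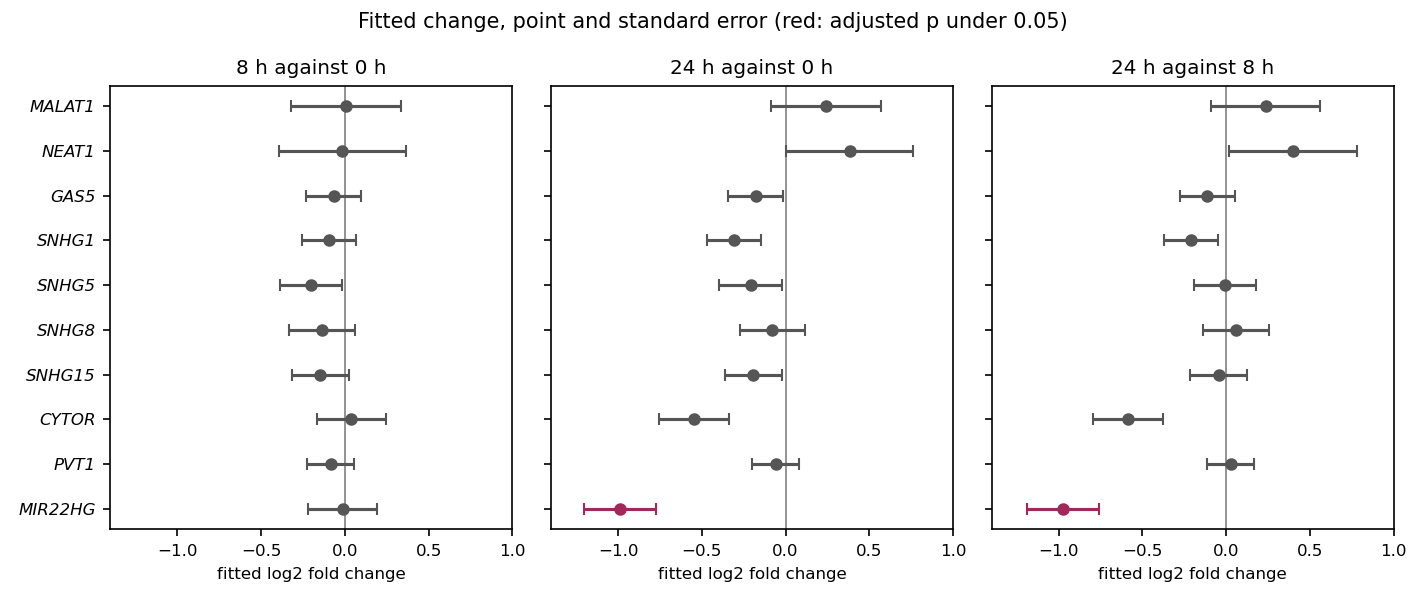
Fitted log2 fold change of each RNA (point) with its standard error (bar) in the 3 comparisons; red marks an adjusted p under 0.05 in the fit without the replicate block. At 8 h all points lie between -0.20 and 0.04, and at 24 h MIR22HG is near -1 and in red against both earlier times.

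CYTOR, an RNA often raised in tumours, was lower at 24 h within each replicate number. It held 35.0, 23.3 and 22.2 CPM untreated, 32.6, 26.5 and 23.4 at 8 h, and 23.1, 17.4 and 14.6 at 24 h. Replicate 1 was the highest and replicate 3 the lowest in every group, so that replicate 1 at 24 h overlapped the untreated range while each same-number difference was negative (-0.60, -0.42 and -0.60 on the log2 scale). The mean went from 26.8 ± 7.13 to 18.4 ± 4.33 CPM (SD, n = 3), a fitted change of -0.55 (SE 0.21). That did not pass edgeR's quasi-likelihood test without the block (adjusted p = 0.139) and did with it (-0.54, adjusted p = 0.00204). Without the block the fitted change ran from -0.75 (24 h replicate 1 left out) to -0.33 (untreated replicate 1 left out). The block fit called it in all 9 repeats that left out 1 library, with adjusted p from 0.00160 to 0.0145.

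CYTOR shares part of its annotated sequence with MIR4435-2HG, and its counts are uncertain to that extent. Of the 50-base words in CYTOR's annotated transcripts, 16% also occurred in MIR4435-2HG, and 10 of 38 CYTOR transcripts shared more than 50% of theirs; how the deposited counts treated such reads is not given in the sources used here. MIR4435-2HG held 71.2, 60.8 and 57.9 CPM untreated and 54.1, 43.1 and 32.7 at 24 h, below the untreated libraries in all 3. Its fitted change was -0.55 (SE 0.17, adjusted p = 0.0813 without the block and 0.00193 with it), the same size as that of CYTOR. Since reads may be shared, these are not independent values. The strand setting of the counts is likewise not given.

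NEAT1, the paraspeckle scaffold, differed widely between replicates of the same group. It held 258, 316 and 561 CPM untreated, 244, 304 and 574 at 8 h, and 282, 528 and 670 at 24 h. Replicate 3 was highest and replicate 1 lowest in all 3 groups, with a 2.17-fold range among the untreated libraries alone. At 24 h the mean was 493 ± 197 CPM against 378 ± 161 untreated (SD, n = 3), a fitted change of 0.38 (SE 0.38) that did not pass (edgeR adjusted p = 0.532). Each same-number difference was positive (0.13, 0.74 and 0.26), and with the block the adjusted p was 0.0392. That call was lost in 4 of 9 block fits with a library left out: untreated replicate 2 (0.192), 24 h replicate 2 (0.205), 8 h replicate 1 (0.0613) and 8 h replicate 3 (0.0579). The fitted change with the block and without 24 h replicate 2 was 0.18. Without the block it ran from 0.088 (24 h replicate 3 left out) to 0.78 (untreated replicate 3 left out).

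MALAT1, the nuclear speckle RNA, held 132, 146 and 284 CPM untreated, 156, 134 and 273 at 8 h, and 154, 255 and 255 at 24 h. Its groups overlapped throughout, and replicate 2 alone was far higher at 24 h than at 0 h. Same-number differences were 0.22, 0.81 and -0.16, with a fitted change of 0.24 (SE 0.33, edgeR adjusted p = 0.655, and 0.207 with the block).

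**Figure D3:**
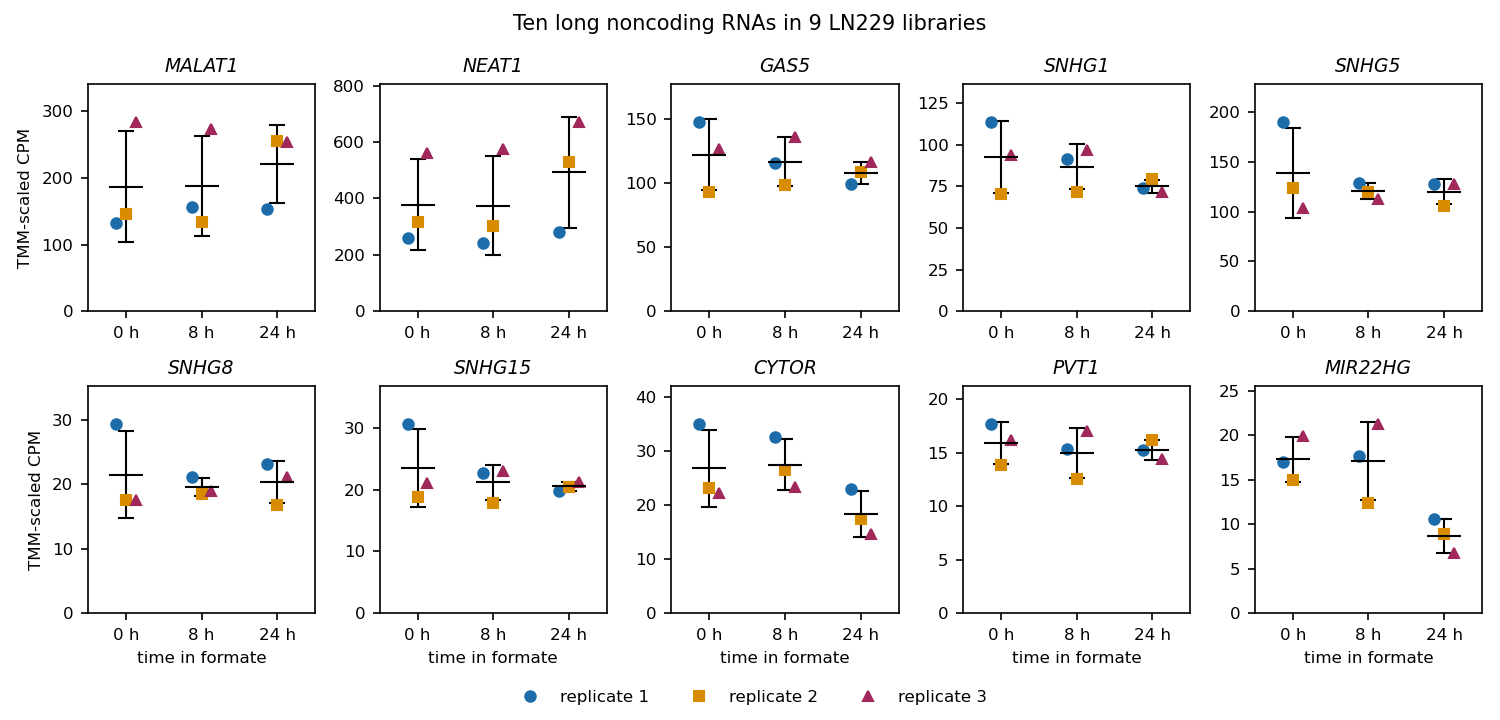
CPM of each RNA in every library by time in formate, with the group mean (dash) and SD (bar) of 3 libraries and a marker for each replicate number; each panel's axis starts at 0. MIR22HG at 24 h lies below its earlier libraries, and replicate 3 of NEAT1 and replicate 1 of CYTOR are the highest of every group.

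Replicate number itself was tested with an F test in the block fit, added after the values had been seen. NEAT1 differed between numbers (adjusted p = 0.00350), replicate 3 being 2.30-fold above replicate 1 over the 3 groups, and so did MALAT1 (1.85-fold, adjusted p = 0.0196). CYTOR differed in the other direction, with replicate 3 lower than replicate 1 by 0.60 on the log2 scale (adjusted p = 0.00971). These 3 of 10 stand beside 10.9% of all tested genes in the same edgeR test. For NEAT1 and CYTOR the same number was highest and the same number lowest in all 3 groups, which held for 13.1% of tested genes. MIR22HG, the member called at 24 h, showed no such order: replicate 3 was highest at 0 h and 8 h and lowest at 24 h, and its adjusted p for replicate number was 0.354.

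**Figure D4:**
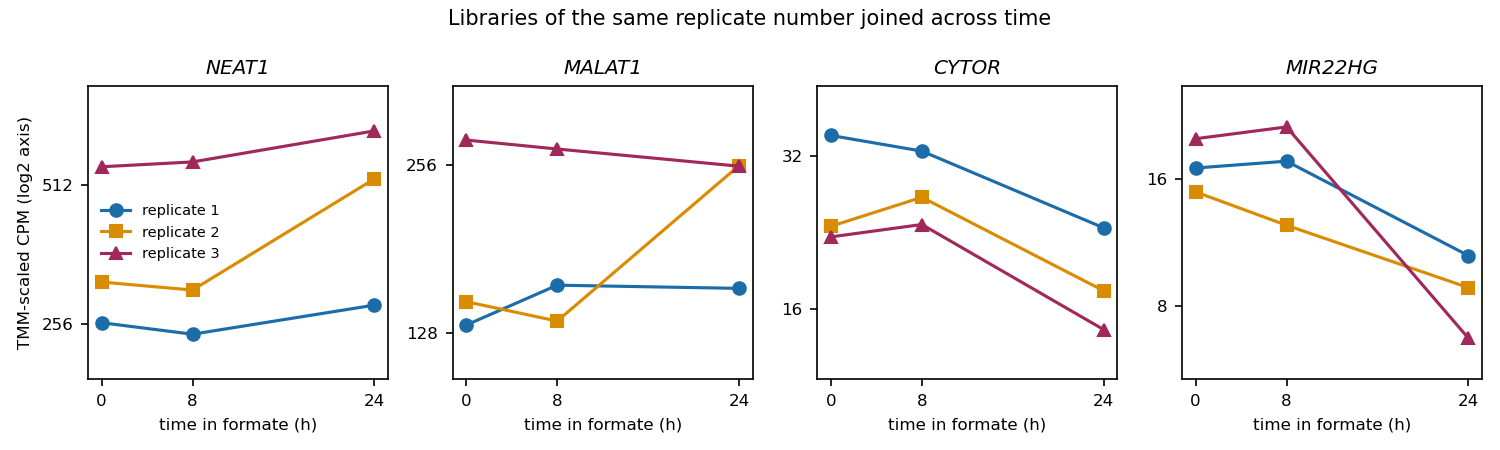
CPM (log2 axis) of NEAT1, MALAT1, CYTOR and MIR22HG against hours in formate, drawn to scale, with lines joining libraries of the same replicate number. The lines of NEAT1 and CYTOR do not cross, while replicate 3 of MIR22HG falls from the top of the panel to the bottom (21.2 to 6.72 CPM between 8 h and 24 h).

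The 5 snoRNA hosts did not pass the test at 24 h, with or without the block. All 5 were fitted lower than at 0 h, with a median log2 fold change of -0.19. Replicate 1 was lower at 24 h for every host, by 0.34 to 0.62 on the log2 scale, and the other numbers differed in sign between hosts. Untreated replicate 1, which stood apart from its partners over all genes, was the highest untreated library of each host. Without it SNHG5 (0.06), SNHG8 (0.19) and SNHG15 (0.02) were fitted higher at 24 h, and GAS5 and SNHG1 remained lower.

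GAS5 held 147, 92.9 and 126 CPM untreated, 116, 98.2 and 136 at 8 h, and 99.2, 109 and 116 at 24 h. The 24 h libraries lay inside the untreated range, and the fitted change was -0.18 (SE 0.16, edgeR adjusted p = 0.498). SNHG1, host of SNORD25 and SNORD27 printed above, held 113, 70.7 and 94.1 CPM untreated, 91.5, 71.5 and 97.1 at 8 h, and 74.0, 79.3 and 71.6 at 24 h. Its mean was 92.7 ± 21.4 CPM untreated and 75.0 ± 3.94 at 24 h (SD, n = 3), a fitted change of -0.31 (SE 0.16, adjusted p = 0.248, and 0.143 with the block). The untreated libraries of SNHG1 thus ranged 1.61-fold and enclosed those of 24 h.

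SNHG5 held 190, 123 and 104 CPM untreated, 129, 120 and 113 at 8 h, and 127, 105 and 128 at 24 h. One untreated library was far above the other 8, and the fitted change at 24 h was -0.21 (SE 0.19, edgeR adjusted p = 0.480). SNHG8 held 29.3, 17.6 and 17.6 CPM untreated, 21.2, 18.5 and 18.98 at 8 h, and 23.2, 16.7 and 21.1 at 24 h, for a fitted change of -0.08 (SE 0.20, adjusted p = 0.821). SNHG15 held 30.6, 18.8 and 21.1 CPM untreated, 22.7, 17.9 and 22.9 at 8 h, and 19.8, 20.5 and 21.2 at 24 h, for a fitted change of -0.19 (SE 0.17, adjusted p = 0.478). Replicates 2 and 3 stayed between 16.7 and 21.1 CPM for SNHG8 and between 17.9 and 22.9 CPM for SNHG15 in all groups.

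PVT1 varied little, with a coefficient of variation of 5.88% to 15.4% within groups. It held 17.7, 13.8 and 16.2 CPM untreated, 15.4, 12.5 and 17.1 at 8 h, and 15.2, 16.2 and 14.4 at 24 h, and its fitted change at 24 h was -0.06 (SE 0.14, edgeR adjusted p = 0.811). Its neighbour MYC, 53.1 kb upstream and encoding a growth-promoting transcription factor, fell over the same time. MYC held 25.5, 15.0 and 16.2 CPM untreated, 24.2, 18.1 and 18.4 at 8 h, and 10.95, 10.4 and 8.70 at 24 h, a fitted change of -0.91 (SE 0.20, adjusted p = 0.0347). Every 24 h library of MYC was below every earlier one. The difference between the changes of PVT1 and MYC was not tested.

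Among the 18 protein-coding neighbours of the 10 genes, not all of them reported here, MYC was the only 1 called at 24 h against 0 h without the block. With the block 4 were called. Over all tested genes 4.25% were called without the block and 24.1% with it. FRMD8, upstream of NEAT1 and MALAT1, had a fitted change of 0.40 (adjusted p = 0.104 without the block, 0.00795 with it). SLC3A2, 188 bases from SNHG1 and encoding the heavy chain of amino acid transporters, had -0.13 (0.509), and PRSS12, 215 bases from SNHG8, had 0.16 (0.400). TLCD2, 1055 bases from MIR22HG, had 0.46 (0.208), opposite in sign to MIR22HG. Other neighbours without a call in either fit were RC3H1 (0.02), WDR74 (-0.44), SYNCRIP (-0.10), ZNF292 (0.44), NDST3 (0.35), PURB (-0.03), CCM2 (-0.31), RMND5A (0.21), KRCC1 (-0.14), CYRIB (-0.08) and SERPINF1 (0.18), given as log2 fold changes. Some lay far off, with KRCC1 390 kb and RMND5A 677 kb from CYTOR, ZNF292 1474085 bases from SNHG5 and CYRIB 1738340 bases from PVT1.

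Genes related to the members by role were read from the same fit at 24 h against 0 h. Their calls stand beside 4.25% of all tested genes called without the block and 24.1% with it. Among 22 other snoRNA host RNAs 0 were called without the block, and 3 higher and 2 lower with it; their median was -0.16, with 16 fitted lower. SNHG7 had -0.67 (adjusted p = 0.141 without the block, 0.00353 with it) and SNHG18 0.45 (0.141 and 0.0279). Among 28 protein-coding genes that host snoRNAs 1 was lower and 0 higher, with a median of -0.30 and 7 lower with the block. HSPA8, the constitutive chaperone gene, held 4260, 3026 and 2955 CPM untreated and 1515, 2015 and 1939 at 24 h, a fall of fitted -0.90 (SE 0.18, adjusted p = 0.0280). Among 34 TOP genes of the translation machinery 0 were called, with a median of -0.30 and 31 fitted lower; with the block 1 was higher and 4 lower. EIF4B had 0.24 (adjusted p = 0.156 without the block, 0.0482 with it) and EEF1D -0.51 (0.170 and 0.0184). The median over all tested genes was 0.01. At 8 h against 0 h no gene was called. There 18 of the 22 host RNAs, 25 of the 28 protein-coding hosts and 32 of the 34 TOP genes were fitted lower. Their medians were -0.10, -0.12 and -0.14, beside -0.02 over all tested genes. The share of all tested genes fitted lower is not given here for either time. The lists of protein-coding hosts and TOP genes overlap, with RPL3, EEF2, EEF1B2 and RACK1 in both. How far the medians of these lists rest on untreated replicate 1 was not tested.

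Genes of the proteins that work on these RNAs were read against the 4.25% of all tested genes called without the block and the 24.1% called with it. Of 20 core and assembly factors of snoRNA particles 0 were called, 6 were lower with the block and the median was -0.20; RUVBL2 had -0.48 (adjusted p = 0.115 without the block, 0.00600 with it) and GAR1 -0.48 (0.123 and 0.0268). Of 20 nonsense-mediated decay factors 1 was lower, 5 with the block, with a median of -0.13. That 1 was DHX34, an RNA helicase of the pathway, at 47.5, 40.1 and 43.6 CPM untreated and 32.1, 30.7 and 31.4 at 24 h (-0.48, SE 0.12, adjusted p = 0.0440). Of 17 paraspeckle proteins, the partners of NEAT1, 0 were called, and 1 was higher and 2 lower with the block, with a median of -0.03. HNRNPH3 had -0.32 (0.0632 without the block, 0.0143 with it) and TARDBP -0.32 (0.106 and 0.0408). Of 18 nuclear speckle proteins 0 were called, and 2 were higher and 1 lower with the block, with a median of 0.12. SRSF6 had 0.28 (0.151 and 0.0641) and U2AF2 -0.26 (0.163 and 0.0291). The median over all tested genes was 0.01.

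Among 13 other microRNA host RNAs 1 was lower and 0 higher, with a median of 0.14. With the block 1 was higher and 2 lower. Over all tested genes 4.25% were called without the block and 24.1% with it, and the median was 0.01. MIR31HG, host of miR-31, held 35.6, 24.8 and 25.0 CPM untreated, 32.2, 21.9 and 24.3 at 8 h, and 17.9, 15.6 and 15.3 at 24 h. Like those of MIR22HG, all its 24 h libraries were below all earlier ones, with a fitted change of -0.81 (SE 0.18, adjusted p = 0.0321). Of 17 other long noncoding RNAs 0 were called and 1 was higher with the block, with a median of 0.15; H19 had 1.11 (0.126 without the block, 0.00564 with it) and JPX 0.22 (0.224 and 0.109).

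The same lists were read by replicate number, beside the members' own differences. Replicate 3 was above replicate 1 in 16 of the 17 other long noncoding RNAs (median 0.33 on the log2 scale) and below it in all 34 TOP genes (median -0.34), while 51.8% of all tested genes were above. The 5 snoRNA hosts stood at 0.07 (GAS5), -0.08 (SNHG1), -0.15 (SNHG15), -0.35 (SNHG5) and -0.35 (SNHG8), and none of the 5 passed the replicate test. The part of cell state or library preparation in these differences was not tested.

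Markers of other cell types were read beside the 24 h results. VWF went from 0.424 to 1.28 CPM (adjusted p = 0.0304) and was the endothelial marker that was tested; the endothelial sum reached 1.87 CPM at most. Of the neuronal genes tested, SNAP25 went from 11.2 to 23.8 CPM (0.0356) and SYT1 from 37.1 to 32.9 CPM (0.403). The line's own markers summed to 6284 to 8635 CPM untreated and 5359 to 6209 at 24 h. Among them S100B went from 130 to 340 CPM (0.0460), VIM from 4903 to 3554 (0.134, and 0.00858 with the block) and CD44 from 999 to 769 (0.0929 and 0.00690). Epithelial markers summed to 140 to 203 CPM untreated and 109 to 126 at 24 h, with KRT18 at -0.57 (0.0601, and 0.00333 with the block) and KRT8 at 0.15 (0.506). Their part in the fall of MIR22HG was not tested.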

How the data were processed

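The authors deposited 1 table of raw read counts for 9 libraries, made with bcl2fastq 2.20.0.422 and STAR 2.7.4a on GRCh38, per the submitters' processing notes; the counting program, annotation release and strand setting are not given in the sources used here. One source label spells the line's name differently; it is called here as in the growth protocol. Genes were filtered with filterByExpr, scaled with TMM and fitted as 1 mean per group over all 9 libraries with edgeR 4.0.16 in R 4.3.3 (quasi-likelihood test, two-sided, Benjamini-Hochberg adjustment over 15273 genes, threshold 0.05). The code of the fit was tested on simulated data. The main simulation had less spread than these libraries and no library set apart, so it does not measure how reliable the calls are. The members and gene lists were chosen with earlier results of these data known. All members were named; each list gave its called genes, up to 4, or else the 2 with the smallest p; the nearest tested protein-coding gene on either side of each member was named, and MIR4435-2HG in any case. Some neighbours that met this rule are not reported here.

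Replicate numbers come from the titles. Over genes, deviations of same-numbered libraries correlated at 0.476, 0.432 and 0.414 between 0 h and 8 h and at 0.367, 0.164 and 0.251 between 0 h and 24 h, so the numbers were taken to pair these groups. Between 8 h and 24 h they correlated at 0.423, 0.0367 and 0.404 and were not taken to pair the groups. The block was fitted over all 9 libraries at once. Its results at 24 h against 0 h therefore also rest on the numbers shared by 8 h and 24 h. Alternatives were 14 chosen with the design (DESeq2 1.42.0, its size factors in edgeR, no filter, only the 2 groups compared, the replicate block, each library left out) and 9 block fits with a library left out plus the replicate F test, chosen after seeing the data. Of the table's genes, 98.0% were found in GENCODE 29.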

Additional observations from a re-analysis of the deposited data

Results flagged for a closer look

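The difference of MIR22HG from the untreated libraries was not the same at 8 h and 24 h. The test of 24 h against 8 h is the difference of both contrasts with the shared untreated libraries. It gave a log2 fold change of -0.975 (SE 0.21, edgeR adjusted p = 0.0326). Every library of 24 h was below every library of 8 h, and 34.3% of tested genes were separate between these groups. The call was lost when 24 h replicate 2, 24 h replicate 3, 8 h replicate 1 or 8 h replicate 3 was left out, with adjusted p from 0.0914 to 0.170.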

How the results depend on the processing

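At 8 h against 0 h all alternatives called 0 genes. At 24 h against 0 h, DESeq2 called 1594 genes and 1 member, the fit of only the 2 groups compared called 124 genes and 0 members, and the replicate block called 3687 genes and 3 members; leaving out 1 library, with or without the block, gave 0 to 3816 genes and 0 to 4 members. No gene was called without 24 h replicate 2 or replicate 3 when the block was not used. At 24 h against 8 h, DESeq2 called 1450 genes, the fit of only the 2 groups 1787 genes and 2 members, the replicate block 3130 genes and 3 members, and fits with 1 library left out 0 to 5432 genes and 0 to 3 members. There the block rests on a number that the libraries share without being shown to pair them. MIR22HG was negative in all 14 alternatives chosen with the design at 24 h against 0 h (-1.15 to -0.84) and past the threshold in 10. DESeq2, its size factors in edgeR and no filter on low counts changed no member's call. The causes of these changes were not tested.

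Directions turned mainly where changes were near 0. With 1 library left out, log2 fold changes at 8 h against 0 h ran from -0.36 to 0.45 for MALAT1, -0.46 to 0.39 for NEAT1, -0.23 to 0.12 for GAS5, -0.26 to 0.071 for SNHG1, -0.36 to 0.084 for SNHG5, -0.26 to 0.15 for SNHG8, -0.29 to 0.084 for SNHG15, -0.090 to 0.27 for CYTOR, -0.19 to 0.030 for PVT1 and -0.22 to 0.17 for MIR22HG. At 24 h against 0 h they ran from -0.0088 to 0.67 for MALAT1, -0.34 to 0.0051 for GAS5, -0.38 to 0.063 for SNHG5, -0.21 to 0.19 for SNHG8, -0.33 to 0.023 for SNHG15 and -0.21 to 0.047 for PVT1. At 24 h against 8 h they ran from -0.035 to 0.60 for MALAT1, -0.27 to 0.031 for GAS5, -0.19 to 0.098 for SNHG5, -0.080 to 0.17 for SNHG8, -0.18 to 0.11 for SNHG15 and -0.13 to 0.14 for PVT1. CYTOR, MIR22HG and SNHG1 stayed negative and NEAT1 positive at 24 h against both times in every fit with a library left out. SNHG1 passed edgeR's test in 1 of 9 such block fits against each time (adjusted p = 0.0181 against 0 h and 0.0361 against 8 h).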
